A study of Mus musculus with 144 samples.

Results

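The genes described here are 10 early response genes: the AP-1 subunits Fos, Fosb, Jun, Junb, Jund and Atf3, the transcription factor gene Egr1, and Ier2, Zfp36 and Dusp1. They were chosen by symbol, and all 10 were found among the 55364 genes of the deposited table. The values come from single cells sorted by flow cytometry for the green fluorescence of an Iba1-EGFP transgene, which marks microglia, from retinas of C57BL/6 mice aged 20 to 22 months. By title, 54 wells held cells of retinas with no nerve crush, 36 held cells taken 2 days after optic nerve crush, and 54 held cells taken 4 days after it. Each of 3 plates carried 48 wells, with every group in its own rows, and titles were followed for 18 wells of plate 1 that are titled day 4 but tagged as treated at day 2. The Iba1 promoter is also active in other macrophages, so the sort does not by itself set microglia apart from them. Animals are not named in the labels. Each group therefore counts as 1 sample, no p-value is given, and the SD is over wells.

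AP-1 is a dimer of a Fos-family and a Jun-family protein, or of Jun-family proteins, that binds DNA at short palindromic sites. Its genes, like Egr1 and Ier2, are transcribed within minutes of a stimulus from promoters that already carry their regulators (serum response factor with its ETS partners, and the cyclic AMP response element binding protein). Their messenger RNAs are short-lived. The products of Zfp36 and Dusp1 act as brakes: Zfp36 (tristetraprolin) binds AU-rich sequences in messenger RNA and brings about decay, and Dusp1 removes phosphate from stress kinases. In microglia these genes answer injury and inflammatory signals, and tissue dissociation and sorting are known to induce them too.

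The promoter stretches below show sequence matches to elements that regulators of such genes are known to bind. They are RefSeq sequences on GRCm38.p6, written 5′ to 3′ on the strand of the gene, with the matched element in capitals. Promoters of 300 bases were matched for 8 of the 10 genes, all but Egr1 and Ier2. Fos (chr12:85473745-85473844, plus strand) holds the core TGACG of the cyclic AMP response element 2 times. Dusp1 (chr17:26508562-26508661, minus strand) holds its full palindrome TGACGTCA. Jun (chr4:95052214-95052313, minus strand) holds TGACATCA, a variant of this element bound by Jun and Atf2 proteins. Zfp36 (chr7:28379232-28379331, minus strand) holds a CArG box, the element that serum response factor binds.
Fos: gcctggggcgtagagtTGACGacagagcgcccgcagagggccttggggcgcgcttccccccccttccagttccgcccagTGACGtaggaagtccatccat
Dusp1: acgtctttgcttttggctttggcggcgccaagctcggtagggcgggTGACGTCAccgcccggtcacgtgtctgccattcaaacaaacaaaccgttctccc
Jun: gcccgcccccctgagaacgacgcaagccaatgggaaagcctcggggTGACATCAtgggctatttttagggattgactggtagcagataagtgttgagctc
Zfp36: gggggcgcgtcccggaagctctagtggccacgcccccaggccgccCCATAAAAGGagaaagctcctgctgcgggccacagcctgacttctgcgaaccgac

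Searched on both strands with overlaps kept, TGACG lay in 5 of the 8 promoters (Atf3, Dusp1, Fos, Fosb and Junb), against 20.8% of 32851 promoters in the same table. Any TGACGTCA also counts as TGACG. The full TGACGTCA was in Dusp1, against 1.79% of promoters, and TGACATCA in Jun, against 3.62%. The CArG box was in Zfp36, against 1.63%. The Egr1 motif GCGNGGGCG was in Fosb and Zfp36, against 5.55%, and TATAAA was in Fos and Junb, against 13.6%. The AP-1 site TGACTCA was in 0 of the 8, against 5.2%. These matches describe letters in a window and not binding.

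The last 300 bases of the 3′ untranslated region were searched for TATTTAT, the core of the AU-rich element that Zfp36 binds. It was present in 6 of the 10 genes (Fos, Jun, Jund, Atf3, Zfp36 and Dusp1), against 10.3% of 16458 genes with such a region. Fosb held 1 copy farther upstream. Sites of 30 bases are shown for the genes with the most copies in the last 300 bases, and for Jun. Zfp36 held 3 there, Fos and Dusp1 2 each, and Jun 1. The sites are written in the messenger strand of GRCm38 (GENCODE M21), with the core in capitals. They lie at chr7:28376958-28376987 (minus strand), chr12:85477102-85477131 (plus), chr17:26506159-26506188 (minus) and chr4:95049079-95049108 (minus).
Zfp36: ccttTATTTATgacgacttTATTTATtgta
Fos: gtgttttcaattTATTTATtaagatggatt
Dusp1: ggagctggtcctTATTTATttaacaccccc
Jun: tttgcttgtgcaTATTTATaatagcgttcg

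Depth decides how a well can be read. Recovered reads assigned to genes were at least 60079 in 88 wells, called deep, and at most 14205 in the 56 others, called shallow. There were 39 deep uncrushed wells, 25 deep day 2 wells and 24 deep day 4 wells, 2 of these on plate 3. The 12 deep day 4 wells of plate 1 all belong to the 18 with conflicting labels. Day 4 values of plate 1 rest wholly on these 12 wells, and day 4 values without plate 2 rest mostly on them. Of the 11 microglia markers, 3 or more were held in 37, 21 and 22 of the deep uncrushed, day 2 and day 4 wells. Of 11 neutrophil markers, 3 or more were held in 3, 8 and 6. Their summed level ran from 0 to 160186 FPKM in uncrushed wells (median 18.1), 0 to 149856 at day 2 (median 65.1) and 0 to 102627 at day 4 (median 102). The granule genes Camp, Ngp and Ltf reached 10 reads in 0 of the 88 deep wells, S100a8 in 28, S100a9 in 22 and Csf3r in 31. Retnlg and Cxcr2 did so in 8 each, Lcn2 in 4, and Ly6g and Mmp8 in 2 each. Of 13 rod markers, 3 or more were held in 4, 1 and 1 wells. Below, a well holds a gene when it has 10 or more reads of it, and levels are FPKM, fragments per kilobase of exon and per 1000000 assigned. Group differences are differences of mean log2(FPKM + 1), and 1 is the fold of 2 past which a difference is counted. A pseudocount of 1 understates differences at low levels.

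Wells differed widely in how many of the early response genes they held. The median deep well held 0 of the 10 genes in uncrushed retina, 4 on day 2 and 4.5 on day 4. None of the 10 reached 10 reads in 21, 8 and 4 wells. Between 1 and 4 genes were held in 6 of 39 uncrushed, 6 of 25 day 2 and 8 of 24 day 4 wells. At the other end, 5 or more were held in 12 of 39 uncrushed wells (30.8%, exact Clopper-Pearson 95% interval 17 to 47.6), 11 of 25 day 2 wells (44%, 24.4 to 65.1) and 12 of 24 day 4 wells (50%, 29.1 to 70.9). The intervals overlap, and like all intervals here they cover counting error only. With each deep well thinned to 50000 reads and a gene held at 5 or more, the shares were 25.6%, 44% and 37.5%. Thinning and the lower read minimum changed together, and the order of the days turned round, whereas both days stood above uncrushed retina. Once wells that held 3 or more markers of neutrophils or of rods were left out, the shares were 9 of 32 (28.1%, 13.7 to 46.7), 5 of 17 (29.4%, 10.3 to 56) and 7 of 18 (38.9%, 17.3 to 64.3), so that day 2 differed little from uncrushed retina. The wells left out were picked by those markers alone, whatever microglia markers they held. On plate 2, the 2 day 2 wells with 5 or more of the genes had neutrophil markers and a median of 1.5 microglia markers. The 5 such day 4 wells of plate 2, 3 of them with neutrophil markers, had a median of 11. Leaving such wells out thus does not by itself tell cell types apart.

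**Figure D1:**
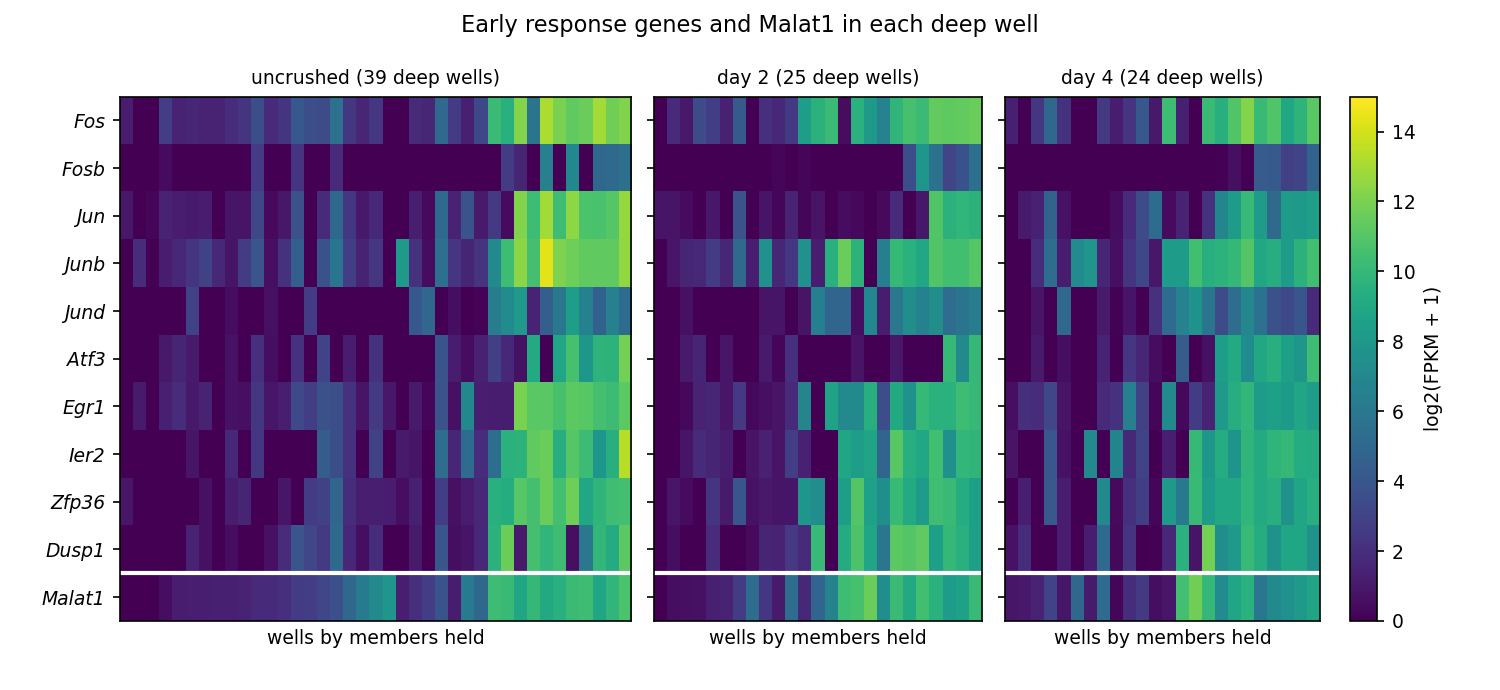
Heat map of log2(FPKM + 1) for the 10 genes and Malat1 (rows) in each deep well (columns) of uncrushed, day 2 and day 4 retina, with wells sorted by how many of the 10 genes they held. The right-hand wells of each panel, 12 of 39, 11 of 25 and 12 of 24, held 5 or more, and Malat1 reached 10 reads in 34 of these 35 wells.

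Over the 45 pairs of genes, the correlation of log2 levels across the 88 deep wells, centred within group, ran from 0.44 to 0.84 with a median of 0.67. All points share their libraries and the scaling of each well to its total. Fos with Zfp36 and Ier2 with Zfp36 were the closest pairs, each at 0.84. Of 41 wells with Fos, 34 also held Zfp36, and of 47 without Fos, 5 held it. Messenger RNA of a possible AP-1 partner was usually held too, which does not show the protein: of the 41 wells that held Fos or Fosb, 38 held Jun, Junb or Jund. That was 13 of 13 uncrushed wells, 13 of 15 day 2 wells and 12 of 13 day 4 wells. Of the 47 wells with neither Fos gene, 12 held a Jun-family gene.

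Fos, which forms AP-1 only with a Jun-family partner (ENSMUSG00000021250, chr12:85473890-85477273 on GRCm38, as all gene positions here), was among the highest of the 10 per length. Its lowest, median and highest values in deep wells were 0, 5.42 and 9218 FPKM in uncrushed retina, 0, 99.8 and 3043 FPKM at day 2, and 0, 10.5 and 4807 FPKM at day 4. The groups overlapped over most of their range, and the highest wells were uncrushed ones. It was held in 13 of 39 uncrushed wells (33.3%, 19.1 to 50.2), 15 of 25 day 2 wells (60%, 38.7 to 78.9) and 13 of 24 day 4 wells (54.2%, 32.8 to 74.4). Thinned shares were 28.2%, 52% and 41.7%. Mean log2(FPKM + 1) was 6.02 ± 4.36 at day 2 and 4.71 ± 4.40 in uncrushed wells (SD, n = 25 and 39 wells), a difference of 1.31 that is below either SD. The day 2 difference was 1.81, 1.56 and 0.30 within plates 1, 2 and 3, and 0.94 without neutrophil or rod wells. On mean FPKM it turned round: the log2 ratio of day 2 to uncrushed means was -0.56. At day 4 the difference from uncrushed wells was 0.60. It was positive on plate 2 (1.56) but not on plates 1 and 3 (-0.15 and -0.14), and it was -0.62 as a log2 ratio of mean FPKM.

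Fosb, a close relative of Fos (ENSMUSG00000003545, chr7:19302696-19310051), was the lowest of the 10 in every group, with medians of 0 FPKM. Its highest well reached 125 FPKM among uncrushed wells, 243 among day 2 wells and 26.2 among day 4 wells. Fosb was held in 7, 6 and 5 deep wells, every one of which also held Fos. Its differences were 0.17 for day 2 and -0.20 for day 4 against uncrushed retina.

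Jun, the subunit that can pair with itself as well as with Fos (ENSMUSG00000052684, chr4:95049034-95052222), ran differently from Fos at day 2. Its lowest, median and highest values were 0, 1.72 and 7638 FPKM in uncrushed wells, 0, 0.721 and 1927 FPKM at day 2, and 0, 3 and 1148 FPKM at day 4. Jun was found in 12 of 39 uncrushed wells (30.8%, 17 to 47.6), 4 of 25 day 2 wells (16%, 4.54 to 36.1) and 10 of 24 day 4 wells (41.7%, 22.1 to 63.4). Thinned shares were 30.8%, 16% and 33.3%. Among wells with Fos, Jun was also held in 10 of 13 uncrushed, 4 of 15 day 2 and 10 of 13 day 4 wells.

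Mean log2(FPKM + 1) of Jun was 2.18 ± 3.58 at day 2 and 3.78 ± 4.48 in uncrushed wells (SD, n = 25 and 39 wells), a difference of -1.60, and it was negative on all 3 plates (-1.64, -2.71 and -1.04). The 8 day 2 wells with neutrophil markers held Fos in 7, Egr1 in 7 and Dusp1 in 7, but Jun in 0 and Atf3 in 0. Without neutrophil or rod wells Jun was held in 9 of 32 uncrushed wells, 4 of 17 at day 2 and 7 of 18 at day 4. The day 2 difference was then -0.57, no longer past the fold. Day 4 minus uncrushed was -0.16 over all deep wells, with -1.08, 1.45 and -0.40 within plates 1 to 3. As log2 ratios of mean FPKM against uncrushed wells, Jun was at -2.22 at day 2 and -2.75 at day 4. Day 4 minus day 2 was 1.44, or 4.16 on plate 2 against 0.56 and 0.64 on plates 1 and 3, 0.22 without plate 2, 0.35 without neutrophil or rod wells, and -0.54 as a log2 ratio of mean FPKM. Jun overlaps Junos on the opposite strand, and Jund, Zfp36 and Dusp1 overlap Gm11175, Gm44710 and Ergic1 in the same way. Whether counting used strand is not given in the sources used here, so reads of such pairs may not be told apart.

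Atf3, a stress-induced partner of Jun that can also repress its targets (ENSMUSG00000026628, chr1:191170296-191218039), was lower at day 2, as Jun was. Its lowest, median and highest values were 0, 1.02 and 3707 FPKM in uncrushed wells, 0, 0 and 1046 FPKM at day 2, and 0, 1.42 and 1313 FPKM at day 4. Wells that held it numbered 7 of 39 uncrushed (17.9%, 7.54 to 33.5), 3 of 25 day 2 (12%, 2.55 to 31.2) and 9 of 24 day 4 wells (37.5%, 18.8 to 59.4), and the intervals overlap. Day 2 minus uncrushed was -1.01, with -1.49, -0.84 and -1.46 within the plates, and -0.40 without neutrophil or rod wells. Day 4 minus uncrushed was 0.99 for Atf3, against -0.16 for Jun. It was -0.71, 3.06 and -1.67 within plates 1 to 3, and -0.31 as a log2 ratio of mean FPKM. Day 4 minus day 2 was 2.01, the widest of the 30 differences in deep wells. It was 3.89 on plate 2, 0.79 on plate 1 and -0.21 on plate 3, 0.95 without plate 2, and 1.12 without neutrophil or rod wells.

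Junb, the Jun-family subunit that often tempers Jun and takes part in cytokine gene control (ENSMUSG00000052837, chr8:84976910-84978718), was held by the most day 4 wells. Its lowest, median and highest values were 0, 5 and 21673 FPKM in uncrushed wells, 0, 85.3 and 3162 FPKM at day 2, and 0, 260 and 2034 FPKM at day 4. The medians stood in the order of the days while the highest values stood in the reverse order. One uncrushed well of plate 3 gave 41.7% of the summed uncrushed FPKM. Junb was held in 14 of 39 uncrushed wells (35.9%, 21.2 to 52.8), 13 of 25 day 2 wells (52%, 31.3 to 72.2) and 15 of 24 day 4 wells (62.5%, 40.6 to 81.2), and thinned shares were 30.8%, 52% and 62.5%. Day 4 minus uncrushed was 1.20, with means of 6.08 ± 3.99 at day 4 and 4.88 ± 4.53 in uncrushed wells (SD, n = 24 and 39 wells). It was 0.15, 2.34 and -0.70 within plates 1 to 3, 0.82 without neutrophil or rod wells, and -1.58 as a log2 ratio of mean FPKM, or -0.85 without the highest uncrushed well.

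Jund, the subunit most often present in resting cells (ENSMUSG00000071076, chr8:70698949-70700616), had low levels in all groups. Its highest well was at 331 FPKM for uncrushed retina, 170 for day 2 and 208 for day 4, and its medians were 0, 0.806 and 6.26 FPKM. Jund was held in 12 of 39, 12 of 25 and 14 of 24 wells, and after thinning, at 5 or more reads, in 6, 8 and 5. At 1 or more thinned reads the shares were 33.3%, 44% and 50%, so the place of day 4 turned on the read minimum. Its difference from uncrushed wells was 0.83 at day 2, with 1.05, 0.32 and 0.77 within plates 1 to 3. At day 4 it was 0.81, with 1.54, 0.75 and -2.39 within the plates, and -0.12 as a log2 ratio of mean FPKM.

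Egr1 encodes a zinc finger activator that binds GC-rich sites (ENSMUSG00000038418, chromosome 18, 34859823 to 34864984). Its lowest, median and highest values were 0, 1.76 and 3983 FPKM in uncrushed wells, 0, 10.9 and 1285 FPKM at day 2, and 0, 5.89 and 970 FPKM at day 4. Egr1 was held in 11 of 39 (28.2%, 15 to 44.9), 14 of 25 (56%, 34.9 to 75.6) and 13 of 24 wells (54.2%, 32.8 to 74.4). Thinned shares were 25.6%, 52% and 41.7%. Its differences from uncrushed wells were 0.98 at day 2 and 0.50 at day 4, and on plate 3 they were -0.82 and -1.50. The day 4 difference was positive on plate 2 (2.21) but not on plate 1 (-0.31), and it was -1.66 as a log2 ratio of mean FPKM. Without neutrophil or rod wells the day 2 difference was 0.13.

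Ier2, a nuclear early response protein (ENSMUSG00000053560, chr8:84661331-84662854), had lowest, median and highest values of 0, 2.33 and 10480 FPKM in uncrushed wells, 0, 2.65 and 2171 FPKM at day 2, and 0, 61.8 and 1050 FPKM at day 4. It was held in 13 of 39, 11 of 25 and 12 of 24 wells. Its closest partner was Zfp36, at a correlation of 0.84, followed by Egr1 at 0.82 and Junb at 0.81. Day 4 minus uncrushed was 1.25 over all plates, with means of 4.92 ± 4.21 at day 4 and 3.67 ± 4.35 in uncrushed wells (SD, n = 24 and 39 wells). It was 2.86 on plate 2 but -0.31 and -0.27 on plates 1 and 3, and 0.62 without neutrophil or rod wells. As a log2 ratio of mean FPKM it was -1.01, but 1 uncrushed well of plate 1 gave 45.6% of the summed uncrushed FPKM, and without it the ratio was -0.17.

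**Figure D2:**
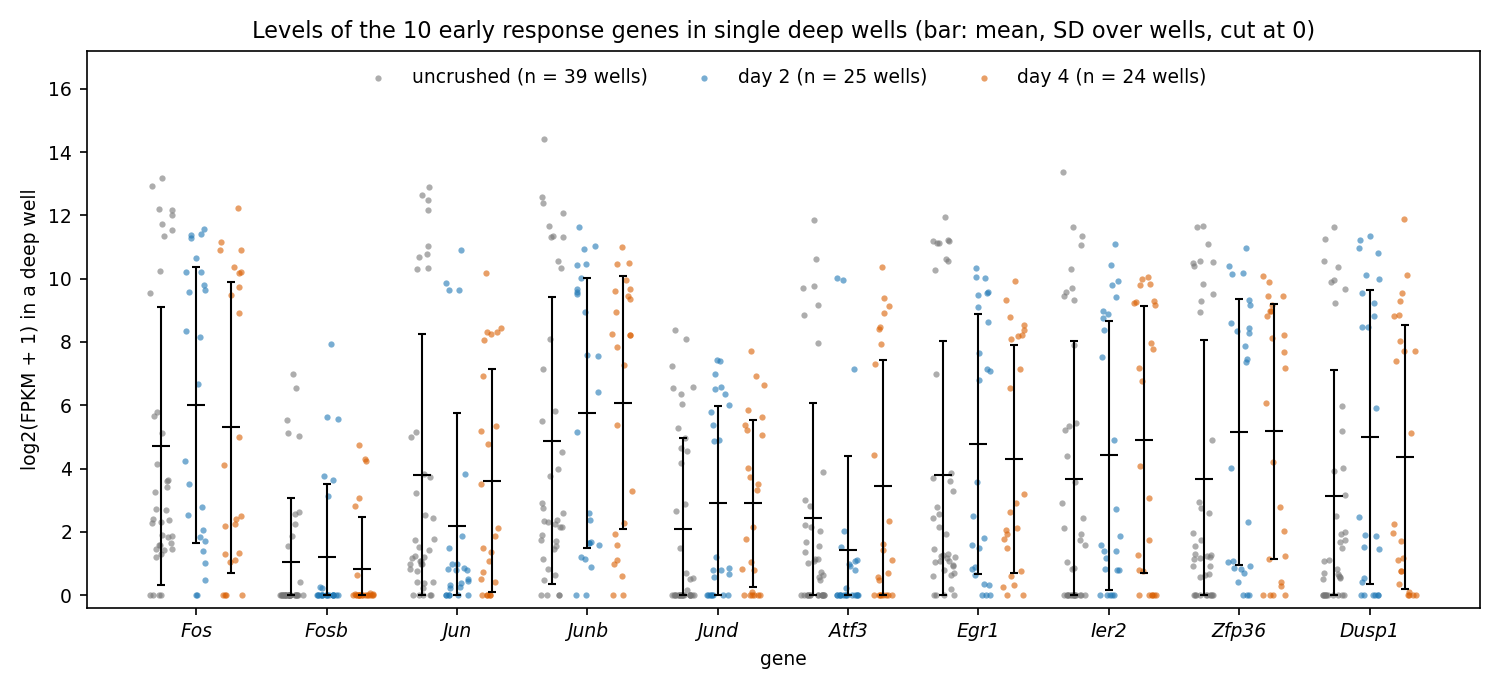
Log2(FPKM + 1) of the 10 genes in each deep well, for 39 uncrushed, 25 day 2 and 24 day 4 wells (points), with the mean and the SD over wells (bars, cut at 0). For most genes the wells form a low and a high cloud, the groups overlap, and the highest points of Fos, Jun, Junb, Jund, Atf3, Egr1, Ier2 and Zfp36 are uncrushed wells.

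Zfp36 and Dusp1 were the 2 genes past the fold at both days. Zfp36 (ENSMUSG00000044786, chr7:28376784-28380253) had lowest, median and highest values of 0, 1.42 and 3264 FPKM in uncrushed wells, 0, 165 and 2025 FPKM at day 2, and 0, 105 and 1087 FPKM at day 4. It was held in 12 of 39 (30.8%, 17 to 47.6), 13 of 25 (52%, 31.3 to 72.2) and 14 of 24 wells (58.3%, 36.6 to 77.9), and thinned shares were 30.8%, 52% and 54.2%. Mean log2(FPKM + 1) was 3.68 ± 4.38 in uncrushed wells, 5.15 ± 4.21 at day 2 and 5.17 ± 4.02 at day 4 (SD, n = 39, 25 and 24 wells). Day 2 minus uncrushed was 1.47 and positive on all 3 plates (1.52, 0.47 and 1.46). Day 4 minus uncrushed was 1.49, with 0.75, 2.29 and -0.14 within the plates. Without neutrophil or rod wells these were 0.41 at day 2 and 0.98 at day 4. As log2 ratios of mean FPKM they were -0.32 at day 2 and -0.71 at day 4.

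Dusp1 (ENSMUSG00000024190, chr17:26505590-26562128) had lowest, median and highest values of 0, 1.14 and 3191 FPKM in uncrushed wells, 0, 4.58 and 2583 FPKM at day 2, and 0, 3.31 and 3802 FPKM at day 4. It was the only one of the 10 whose highest well was a day 4 well, besides Fosb with a day 2 well. It was held in 10 of 39 (25.6%, 13 to 42.1), 14 of 25 (56%, 34.9 to 75.6) and 12 of 24 wells (50%, 29.1 to 70.9), and thinned shares were 25.6%, 48% and 41.7%. Day 2 minus uncrushed was 1.86, with means of 5 ± 4.65 at day 2 and 3.15 ± 3.98 in uncrushed wells (SD, n = 25 and 39 wells), and positive on all 3 plates (0.87, 1.21 and 2.60). It was 0.59 without neutrophil or rod wells. Day 4 minus uncrushed was 1.22, with -0.36, 2.29 and -2.14 within the plates, and 0.75 without neutrophil or rod wells. As log2 ratios of mean FPKM the differences were 0.82 at day 2 and 0.14 at day 4. One day 4 well of plate 1 gave 46.9% of the summed day 4 FPKM, and without it the day 4 ratio was -0.71. With plate as a block the day 4 difference was 0.59, no longer past the fold.

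The order of levels per length was led by Junb and Fos in every group and closed by Fosb. In uncrushed wells it ran Junb, Fos, Egr1, Jun, Zfp36, Ier2, Dusp1, Atf3, Jund and Fosb. At day 2 it ran Fos, Junb, Zfp36, Dusp1, Egr1, Ier2, Jund, Jun, Atf3 and Fosb. At day 4 it ran Junb, Fos, Zfp36, Ier2, Dusp1, Egr1, Jun, Atf3, Jund and Fosb. Every gap between neighbours was smaller than the SD of that gap over wells, so no neighbours differed beyond their spread. Jun was at rank 4 in uncrushed wells, 8 at day 2 and 7 at day 4.

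Day 2, the earlier time after crush, was compared with uncrushed retina. In deep wells Fos, Zfp36 and Dusp1 were higher by 1 or more, 3 of 10 against 13.8% of 9716 genes. Jun and Atf3 were lower, 2 of 10 against 1.06%. Without neutrophil or rod wells 0 were higher and 0 lower, and as log2 ratios of mean FPKM 0 were higher. The medians were 0.85 for the 10 genes and 0.26 for all genes. Over all wells 3 of 10 were higher, against 7.99% of genes.

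Day 4 was compared with the same uncrushed wells, so the comparisons share them. In deep wells 4 of the 10 genes, Junb, Ier2, Zfp36 and Dusp1, were higher by 1 or more, against 26.5% of 11089 genes. None was lower by 1 or more, against 0.712% of genes. The share of members is not far from that background. The median difference was 0.90 for the 10 genes and 0.50 for all genes, and relative to the latter 0 members were past the fold. The count was also 0 without plate 2, without neutrophil or rod wells, and as log2 ratios of mean FPKM, and it was 7 without plate 1 and 3 with plate as a block. Over all wells of both groups 5 of 10 were higher, against 9.40% of 10109 genes. However, 30 of the 54 day 4 wells there were shallow. Between the days, Jun and Atf3 were higher at day 4, 2 of 10 against 12% of 12615 genes, and over all wells 1 of 10, Jun at 1.79, against 3.63%. The medians in deep wells were 0.00 for the 10 genes and 0.22 for all genes.

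**Figure D3:**
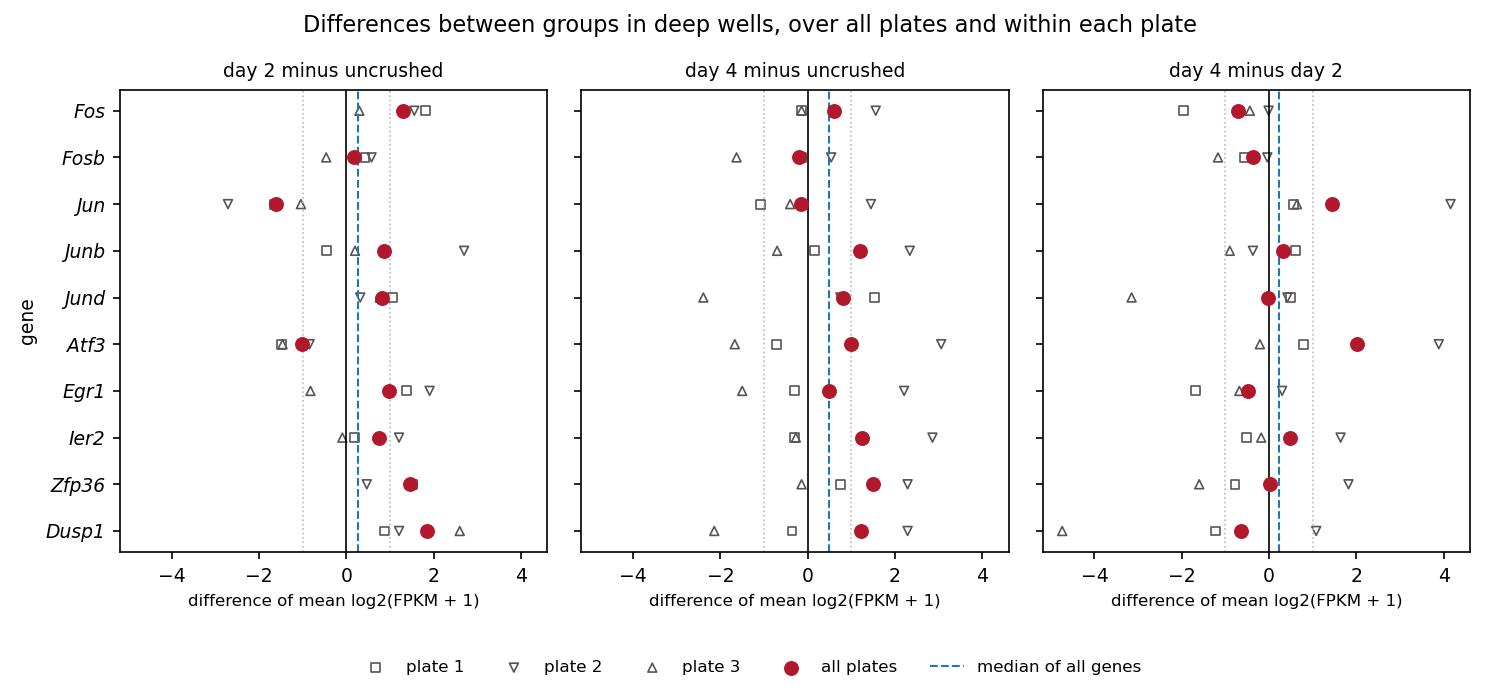
Differences of mean log2(FPKM + 1) in deep wells for the 10 genes, over all plates (filled) and within each plate (open), with dotted lines at -1 and 1 and a dashed line at the median of all genes (0.26, 0.50 and 0.22). Day 4 values of plate 2 lie to the right of those of the other plates for most genes, whereas the day 2 values of Jun and Atf3 are negative on every plate.

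At day 4 the share of deep wells that held a gene was higher than in uncrushed retina for all 10 genes, as it was for 82.4% of all genes tested. At day 2 it was higher for 8 of 10, against 70.3% of genes, and lower for Jun and Atf3, against 19% of genes. After thinning, Fosb was held in a lower share at day 4 (8.33%) and at day 2 (12%) than in uncrushed retina (12.8%), and the direction of the other 9 genes was the same. Among the wells that held a gene, the median level was lower at day 4 for all 10, and at day 2 for all but Atf3 and Jund. Share and level did not always run in opposite directions: at day 2 both were lower for Jun, and after thinning both were lower for Fosb at day 4. Egr1 had 2223 FPKM in uncrushed wells, 470 at day 2 and 288 at day 4. Jun had 1692 FPKM in 12 uncrushed wells, 859 in 4 day 2 wells and 286 in 10 day 4 wells. Junb had 2574 FPKM in uncrushed wells, 812 at day 2 and 655 at day 4. For these 3 genes the level was lower at each later time. Zfp36 had 1404, 385 and 477 FPKM in the same order of times, and Fos had 2989, 894 and 1170.

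The log2 ratio of these medians was -1 or less for 8 of the 10 genes at day 4, from -1.07 for Jund to -2.95 for Egr1, with Fosb at -0.89 and Ier2 at -0.32. Of 2642 genes held by 5 or more wells in both groups, 46.6% were as low, and their median ratio was -0.91. At day 2 it was -1 or less for Fos, Junb, Egr1 and Zfp36, 4 of the 8 genes with 5 or more wells in each group, against 23.8% of 2280 genes and a median of -0.43. With wells thinned to 50000 reads the counts were 6 of 9 at day 4 and 4 of 7 at day 2. Egr1 was then at -2.83 at day 4 and -2.03 at day 2. The count at day 4 was 5 of 8 without plate 1 or without plate 3. Wells differ in how many genes share the total: deep wells had a median of 3161 genes with reads for uncrushed, 3777 for day 2 and 4992 for day 4 retina. The part of genes per well in the lower levels was not tested.

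**Figure D4:**
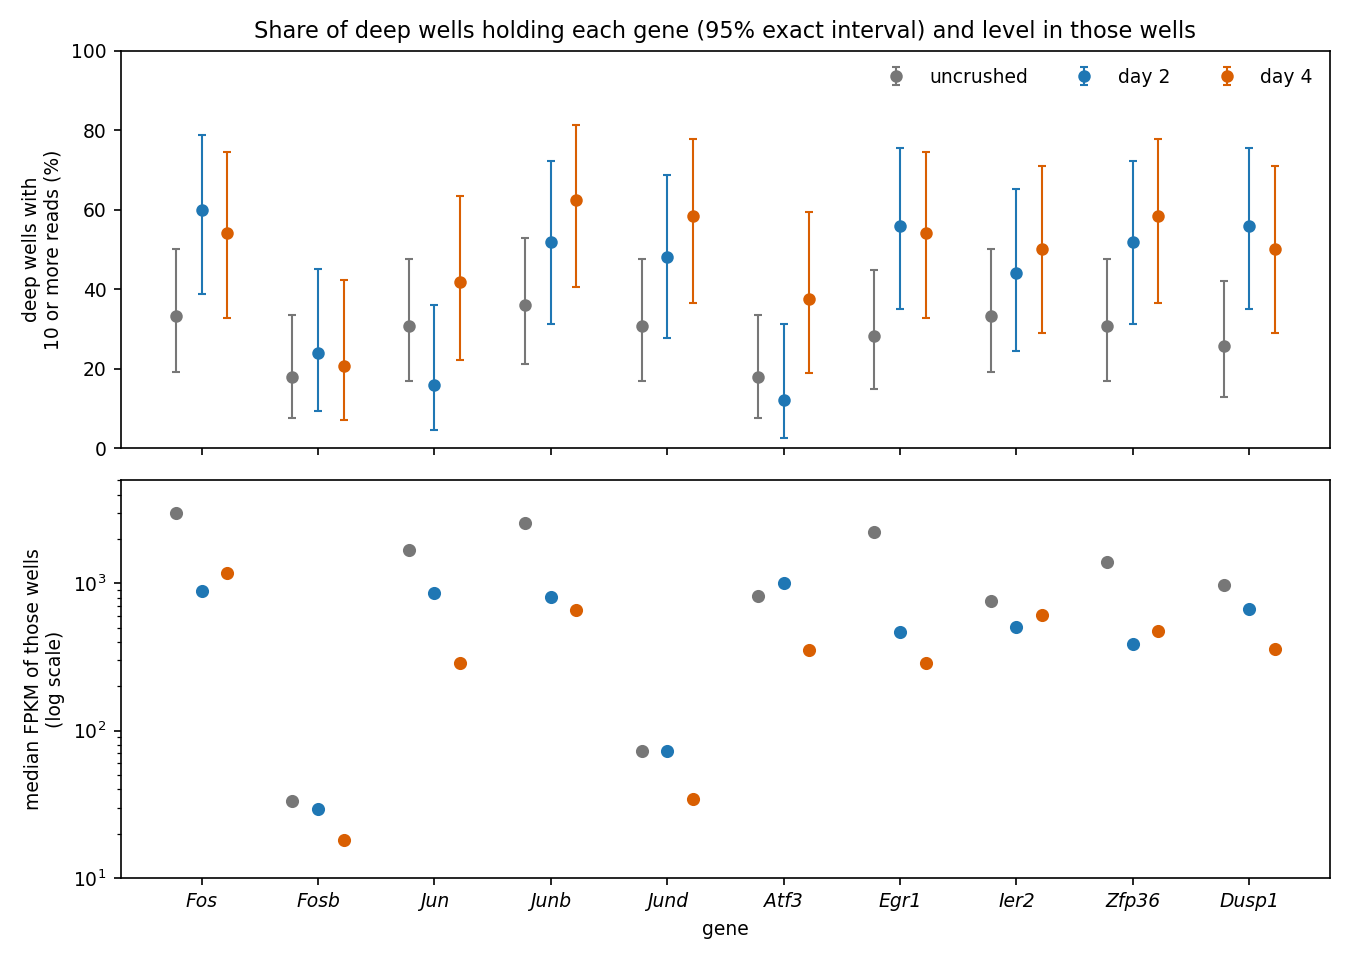
Above, percent of deep wells with 10 or more reads of each gene in uncrushed, day 2 and day 4 retina, with exact 95% intervals. Below, the median FPKM of those wells on a log scale. Shares are higher at day 4 than in uncrushed retina for all 10 genes, whereas the median levels are lower at day 4 for all 10.

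Wells that held many of the 10 genes differed from the others in further transcripts. Genes were ranked by correlation with the mean level of the 10 over the 88 deep wells, centred within group, among 1146 genes whose median correlation was 0.22. The 8 most like were Btg2 (0.91), an antiproliferative early response gene, Mir142hg (0.85), the host gene of a blood cell microRNA, Ier5 (0.82), Ppp1r15a (0.82), a stress phosphatase subunit, Malat1 (0.81), a long noncoding RNA kept in the nucleus, Socs3 (0.77), a feedback inhibitor of cytokine signalling, and Srsf5 (0.77) and Rsrp1 (0.76), linked to splicing. The points share library, depth and scaling, and thinned values were 0.73 to 0.90.

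Malat1 was held in 34 of the 35 wells with 5 or more of the 10 genes and in 7 of the 33 with none. In wells with 5 or more, its median was 983 FPKM for uncrushed, 1151 for day 2 and 347 for day 4 retina, against 2.39, 1.05 and 1.41 FPKM in wells with none. Neat1, another nuclear noncoding RNA, reached 10 reads in 27 of those 35 wells and in 0 of the other 53. Among Malat1-holding wells, 5 or more of the 10 genes were held in 12 of 22 uncrushed wells (54.5%, 32.2 to 75.6), 11 of 18 day 2 wells (61.1%, 35.7 to 82.7) and 11 of 16 day 4 wells (68.8%, 41.3 to 89). Among wells without Malat1 they were held in 0 of 17, 0 of 7 and 1 of 8.

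Genes per well moved with the same split. Wells with 5 or more of the 10 genes had a median of 4128 genes for uncrushed, 4373 for day 2 and 8441 for day 4 retina, against 2561, 3005 and 2996 in wells with none. Median recovered reads in wells with 5 or more were 711369 for uncrushed, 606387 for day 2 and 861829 for day 4 retina. In wells with none they were 390627, 654850 and 408569, so only day 2 was not higher. The correlation of log2 reads with the mean level of the 10 was 0.10, against 0.51 for genes per well. Neutrophil markers moved with the split as well. All 3 uncrushed, 6 of 8 day 2 and 5 of 6 day 4 wells with 3 or more of them held 5 or more of the 10 genes. What part nuclear RNA content, genes per well or cell type had in the early response levels was not tested.

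Shallow wells gave these genes high values on few reads. Fos was at FPKM 1 or more in 49 of the 56 shallow wells (87.5%) on a median of 3 reads, Egr1 in 83.9% on 3, Zfp36 in 82.1% on 3, Jun in 80.4% on 2.5 and Junb in 76.8% on 2. The 10-read rule was met by 0 to 4 of the 56 for any of the 10 genes. In reads per 1000000 (RPM), pooled over shallow wells, Fos stood at 0.388, 0.91 and 0.507 times the mean of deep wells on plates 1, 2 and 3. The median deep well held far less than that mean. Plate 2 had all the other genes above the deep mean, from 1.09 times for Egr1 to 2.3 for Fosb. On plates 1 and 3 only Fosb was above it, at 1.61 and 1.4. Over all wells, at FPKM 1 or more, Fos was found in 90.7% of uncrushed, 91.7% of day 2 and 81.5% of day 4 wells. Deep wells also met this rule often, since their median Fos was 5.42, 99.8 and 10.5 FPKM. In shallow wells alone the shares of Fos were 93.3%, 100% and 80%. Jun was found in 70.4%, 44.4% and 74.1% of all wells, and Atf3 in 48.1%, 30.6% and 38.9%. The lower share of Jun at day 2 (27.9 to 61.9) came from deep wells, since in shallow wells Jun was found in 12 of 15 uncrushed (80%), 9 of 11 day 2 (81.8%) and 24 of 30 day 4 wells (80%). Its interval over all wells overlapped those of uncrushed (56.4 to 82) and day 4 wells (60.3 to 85).

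Genes around the 10 were followed by list, each for day 4 minus uncrushed in deep wells, where 26.5% of all genes were higher by 1 or more. Of 14 other AP-1 family genes 13 passed the filter and 2 were higher, among them Atf4 (1), the integrated stress response activator, while Mafg was at 0.92. The list median was 0.33, below that of all genes. Among 24 other early response genes 9 were higher and 0 lower, with Ier3 (3.11), a survival gene, Klf6 (1.61), an injury-induced zinc finger factor, and Rhob (1.38), an inducible small GTPase. Their median was 0.81. At day 2 Klf6 and Rhob were at -0.04 and -0.38 against uncrushed wells, whereas Ier3 was at 1.70.

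For the kinases and phosphatases above AP-1 the list medians were 0.35 and 0.50, against 0.50 for all genes. Of 17 genes of the ERK and stress kinase path, 3 were higher, among them Map2k3 (1.18), which activates p38, and Mapkapk2 (1.09), a p38 substrate kinase. Of 6 other dual specificity phosphatases that passed the filter 0 were higher, with Dusp6 at 0.83, Dusp3 at 0.78 and Dusp2 at 0.62. Of 9 Zfp36 relatives and decay factors 2 were higher, Elavl1 (1.43), which stabilises AU-rich messages, and Cnot7 (1.42), a deadenylase, with Zfp36l1 at 0.85.

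Messenger RNAs known as Zfp36 targets were followed beside Zfp36 itself. Of the 8 that passed the filter, 7 were higher by 1 or more at day 4, with a list median of 2.32, led by the chemokines Ccl2 (4.26) and Ccl4 (3.97) and by Ier3. In uncrushed wells with Zfp36, Ccl4 was held in 6 of 12, Ccl2 in 1 and Tnf in 2, against 1, 0 and 0 of 27 uncrushed wells without Zfp36. At day 2 they were held in 7, 2 and 2 of 13 wells with Zfp36, against 1, 0 and 1 of 12 without it. At day 4 they were held in 11, 9 and 9 of 14 wells with Zfp36, against 3, 3 and 0 of 10 without it. Ier3 was held in 3 of 12 uncrushed, 7 of 13 day 2 and 12 of 14 day 4 wells with Zfp36, and in 0 wells without Zfp36 in each group. All but 1 of the deep wells with Tnf, and all with Ier3, thus held Zfp36. The same held for all wells with Cxcl2, but not for every target. Il1b was held in 3, 7 and 6 wells with Zfp36 and in 2, 4 and 0 without it, for uncrushed, day 2 and day 4. Il6 was held only in wells without Zfp36, 1 uncrushed and 1 day 4 well. The part of genes per well in this was not tested.

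Heat shock genes respond to protein damage and, like the early response genes, to cell handling. All 10 of those listed were higher by 1 or more at day 4, with a median of 2.50 and with Hsp90aa1 at 3.80, Hspd1 at 3.11 and Dnaja1 at 3.03. At day 2 the count was 3 of 9, against 13.8% of all genes, with medians of 0.74 for the list and 0.26 for all genes. For day 4 minus day 2 the heat shock median was 2.00, against 0.00 for the 10 early response genes. The difference between these lists was not tested.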

How the data were processed

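The authors deposited FPKM for 55364 genes in 144 wells, each the library of 1 sorted cell. Per the submitters' processing notes, the tools were Trim Galore 0.4.4, Trimmomatic 0.36, cutadapt 1.16, STAR 2.7.2b and featureCounts 1.6.1, with GRCm38.p6 (mm10). Whether counting used strand is not given in the sources used here. Depth was recovered by taking the most frequent FPKM times exon length in a well as 1 read: 40.9% of the values under 100 reads came out whole within 0.01, too few for a count test. Reads carry no molecular identifiers. Wells ran from 643 to 8065036 reads.

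Wells were grouped by title. Differences of mean log2(FPKM + 1), a pseudocount of 1, were computed for all genes, with counts among genes at FPKM 1 or more in 5% of the wells of both groups. Plate was also fitted as a block by least squares. Deep wells had 50000 or more reads. Thinning drew 50000 reads per deep well, and a gene was held at 5. The thinned and unthinned shares are both given. No well was removed, no doublet caller was run, 0 pairs of wells had identical values, and 0 columns were left unused.

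The text names all 10 genes, the 3 of each list with the widest day 4 difference in deep wells, and the 8 most like genes, except for some that are not reported here. Likeness took genes at 10 or more reads in 25% of deep wells, leaving out unnamed models and mitochondrial, ribosomal protein and pseudogene symbols. Neat1, and the Zfp36 target mRNAs other than Ccl2, Ccl4 and Ier3, were named after their values were seen. The genes, lists and rules were chosen with earlier results of these data known. The difference script was tested on simulated data. Promoters came from RefSeq and 3′ regions from GENCODE M21, 1 transcript per gene. The scripts ran under Python 3.11.15 with pandas 2.3.3, numpy 2.4.6, matplotlib 3.10.9 and scipy 1.17.1.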

Additional observations from a re-analysis of the deposited data

How the results depend on the processing

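No paired analysis was possible because the well numbers only name wells within a group. Plates are shared by all groups, and with plate as a block, chosen after seeing the data, the deep-well counts of genes higher by 1 or more were 3 for both days against uncrushed and 2 for day 4 against day 2. Of the differences past the fold, 13 changed sign, all as log2 ratios of mean FPKM. In all wells, day 4 against uncrushed gave Junb -0.69, Egr1 -0.92, Ier2 -0.38, Zfp36 -0.43 and Dusp1 -0.08, and day 2 against uncrushed gave Fos -0.31 and Junb -0.92. In deep wells, day 4 against uncrushed gave Junb -1.58, Ier2 -1.01 and Zfp36 -0.71, day 2 against uncrushed gave Fos -0.56 and Zfp36 -0.32, and day 4 against day 2 gave Jun -0.54. Counts of genes higher by 1 or more were then 0 in all 6 comparisons. In deep wells the day 4 count against uncrushed (4) became 7 without plate 1 and 0 without plate 2, without neutrophil or rod wells, at pseudocount 10 and relative to the median of all genes. The day 2 count (3) became 6 without plate 3 and at pseudocount 0.1, and 0 without neutrophil or rod wells. The count lower at day 2 (2) became 1 without plate 3 and with the 18 conflicting wells put in day 2, and 0 without neutrophil or rod wells and at pseudocount 10. Day 4 against day 2 (2) became 0 without plate 2, and 1 without neutrophil or rod wells and at pseudocount 10. Over all wells, day 4 against uncrushed (5) became 2 without plate 2 and at pseudocount 10. Day 2 (3) became 6 without plate 1, 1 without plate 2, 7 without plate 3 and 5 at pseudocount 0.1. Day 4 against day 2 (1) became 2 without any 1 plate, with the 18 wells put in day 2 and at pseudocount 0.1, and 3 without neutrophil or rod wells. The share of wells with 5 or more of the genes at 1 read in deep wells was 84.6%, 92% and 83.3% in uncrushed, day 2 and day 4 retina, with medians of 8, 8 and 9 genes. In wells with Malat1, an alternative chosen after seeing the data, the uncrushed share was 54.5% and its median 6. At FPKM 10 over all wells the share was 46.3% in uncrushed and 58.3% in day 2 wells. Genes lower by 1 or more in the wells that held them, with alternatives also chosen after seeing the data, numbered 5 of 8 at day 4 without plate 1 or plate 3 (main 8 of 10), and at day 2 (main 4 of 8) 2 of 7 without plate 3 and 7 of 10 with the 18 wells put in day 2. The cause of these shifts was not tested. Only 2 deep wells stand behind the day 4 values of plate 3, and the 12 behind those of plate 1 all carry conflicting labels.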
